A study of Mus musculus with 9 samples.

Results

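B6-private expression is described here for the cerebral cortex of mice: the protein-coding genes for which the values of all 3 B6 mice lay outside the range of the 6 mice of 2 other inbred strains, C3H and WSB. Of 54532 gene identifiers, 22046 were protein-coding and 11749 of these had a mean of at least 1 FPKM over the 9 libraries (fragments per kilobase of gene and of counted reads, a level per gene length). The rule was met by 1469 of the 11749 measured genes (12.5%). In 622 of them every B6 value was above the range of the other mice (5.29%), in 764 every B6 value was below it (6.5%), and in 83 the B6 values lay on both sides of it (0.706%). These genes were selected on their measured levels in the same 9 libraries, so their differences from C3H and WSB are given as a description, with no test.

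The mice were males of C57BL6/J (B6), C3H/HeJ (C3H) and WSB/EiJ (WSB), 3 of each, aged 8 to 12 weeks, and none was reported to carry an engineered allele or to have been treated before the cortex was taken. B6 and C3H are classical laboratory strains and WSB is derived from wild mice. The study measured cortex expression in these strains to rank candidate genes in a chromosomal interval linked to the size of the infarct after occlusion of a cerebral artery. Each library held between 16317439 and 21562429 reads on genes, of which the measured coding genes took at least 96.4%. The mice of a strain were separate animals, and the spread between them is the only error available.

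Inbred strains differ in expression through variants that act on single genes, through genes that were lost, gained or copied in a lineage, and through differences in cell composition. Processed pseudogenes, which are copies of a messenger RNA inserted back into the genome, can keep nearly the sequence of their parent gene, and a read that matches both may be counted on either or on neither. The mouse reference genome was built from the B6 strain. A difference in RNA between B6 and the other strains and a difference in how reads of the other strains' alleles were placed on that genome therefore cannot be told apart in these values.

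Most of the differences were small. On the log2(FPKM + 0.1) scale, the mean of B6 minus the mean of the 6 other mice had a median of 0.37 over the genes higher in B6 (range 0.08 to 5.36) and of -0.33 over the genes lower in B6 (range -7.70 to -0.07). A difference of at least 1 was reached by 56 of the higher and 37 of the lower genes, while 414 of the higher (66.6%) and 612 of the lower (80.1%) differed by less than 0.5. The same rule applied to C3H gave 1743 genes (14.8%), with 909 higher (7.74%), 687 lower (5.85%) and 1.25% on both sides. Applied to WSB it gave 1452 genes (12.4%), with 545 higher (4.64%), 786 lower (6.69%) and 1.03% on both sides. The number met by B6 was thus between those of the other strains.

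**Figure D1:**
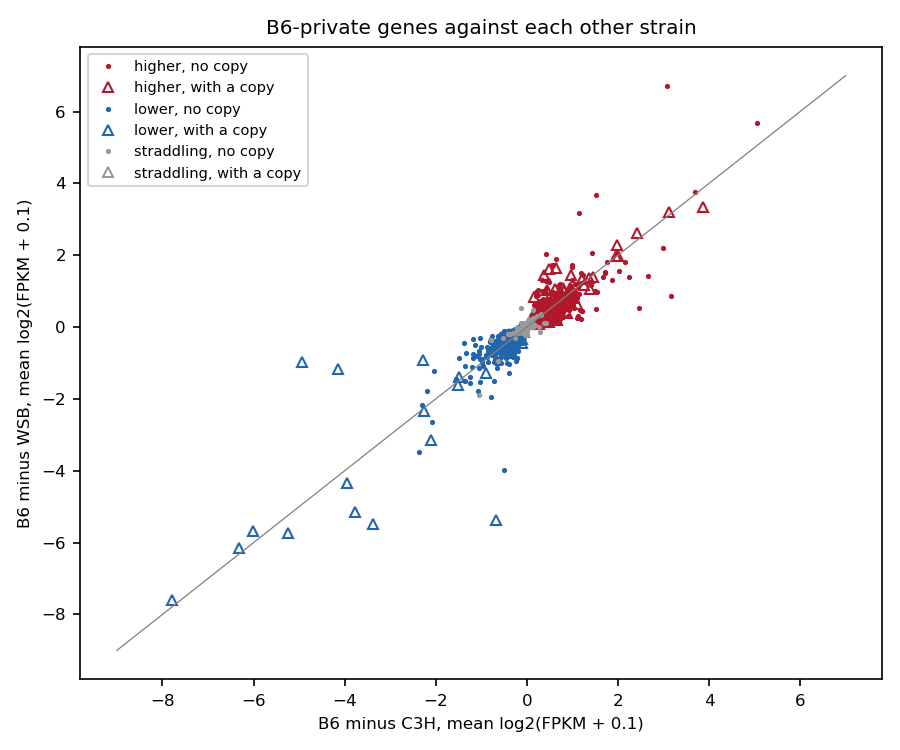
The difference of B6 from C3H (horizontal axis) and from WSB (vertical axis) in mean log2(FPKM + 0.1) is plotted for the 1469 B6-private genes, red for genes higher in B6, blue for genes lower in B6 and grey for the 83 with B6 values on both sides; triangles are genes with a near-identical copy elsewhere in the genome. The grey line marks equal differences from both strains, and the lowest point, at the lower left, is Eno1b with a mean difference of -7.70.

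Near-identical copies were common among the genes with large differences. A copy was taken as another gene or pseudogene whose transcript matched with at least 95% identity over at least 200 bases and 50% of the shorter transcript. Such a copy was found for 7.29% of all measured genes, for 12.4% of the genes higher in B6 and 8.12% of those lower in B6. Among the 93 genes that differed by at least 1, it was found for 33 (35.5%), 17 of them higher and 16 lower. For these the level of the gene alone cannot be separated from that of its copies, and those named below are given with their copies or with the sum over them.

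The sequences of 4 such genes and their copies show how little separates them. Each stretch of 60 bases lies in the coding sequence of the gene and in the exon of the copy, and is written 5′ to 3′ on the strand of transcription, with the bases that differ in capitals (reference sequence, GRCm38). Rps3a1 encodes a protein of the small ribosomal subunit (chr3:86141326-86141385, minus strand) and has the processed pseudogene Rps3a3 (chr13:108670810-108670869, plus strand). mt-Nd3 encodes a subunit of respiratory complex I on the mitochondrial chromosome (positions 9459 to 9518, plus strand), and Gm28438 is a nuclear copy of it (chr1:24613060-24613119, minus strand). Ahcy encodes adenosylhomocysteinase (chr2:155062228-155062287, minus strand) and has the intronless copy Gm4737 (chr16:46153925-46153984, minus strand), which is annotated as coding. Tdg encodes the DNA repair enzyme thymine DNA glycosylase (chr10:82648578-82648637, plus strand) and has the processed pseudogene Gm9855 (chr10:42054196-42054255, minus strand).
Rps3a1: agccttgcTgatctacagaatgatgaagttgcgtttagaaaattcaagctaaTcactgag
Rps3a3: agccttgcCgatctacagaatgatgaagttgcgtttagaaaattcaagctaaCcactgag
mt-Nd3: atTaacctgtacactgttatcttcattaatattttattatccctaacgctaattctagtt
Gm28438: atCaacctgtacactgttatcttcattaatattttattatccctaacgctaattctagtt
Ahcy: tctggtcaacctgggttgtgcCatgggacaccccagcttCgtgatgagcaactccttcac
Gm4737: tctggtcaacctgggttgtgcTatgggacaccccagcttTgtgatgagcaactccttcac
Tdg: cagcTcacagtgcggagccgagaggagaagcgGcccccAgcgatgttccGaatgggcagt
Gm9855: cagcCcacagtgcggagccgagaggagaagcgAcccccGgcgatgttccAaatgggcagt

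Over the whole alignments, Rps3a1 and Rps3a3 differed at 9 of 795 bases, mt-Nd3 and Gm28438 at 1 of 345, Ahcy and Gm4737 at 6 of 2083, and Tdg and Gm9855 at 9 of 1194. Rps3a1 had 299, 308 and 327 FPKM in the B6 mice, 65.9, 54.1 and 55.9 in the C3H mice and 53.6, 58.5 and 41.3 in the WSB mice, a log2 difference of 2.51 between B6 and the others. Its copy Rps3a3 was at 0, 0.187 and 0 FPKM in B6 and at 120 to 172 FPKM in the other 6 mice, and a further copy, Rps3a2, was at 0.178 to 0.563 in B6 and at 25.4 to 56.4 in the others. The gene was high where its copies were low, in every mouse. Summed over Rps3a1 and its 6 copies, the level was 292, 302 and 320 FPKM × kb (FPKM times gene length in kilobases, so that genes of unequal length can be added) in B6, 216 to 230 in the C3H mice and 165 to 184 in the WSB mice. The sum was still above the other mice in B6, and its difference was 0.62.

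The mitochondrial gene mt-Nd3 had 102, 77.3 and 82.8 FPKM in B6 and 4.89 to 10.8 FPKM in the other 6 mice (log2 difference 3.61). Gm28438 had 12.9, 13.9 and 17.3 FPKM in B6 and 102 to 167 in the others. The sum of both was 31.7 to 39.9 FPKM × kb in B6, 36.9 to 46.4 in the C3H mice and 56.2 to 60.7 in the WSB mice, so that the groups of B6 and C3H overlapped and the difference, -0.46, had the other sign. Of the 13 protein-coding genes of the mitochondrial chromosome, only mt-Nd3 and mt-Co1 met the rule. mt-Co1, the catalytic subunit of cytochrome oxidase, had 8545, 7453 and 7768 FPKM in B6 and 6317 to 7190 in the others, a difference of 0.22.

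Atp6v0c encodes the proteolipid that forms the membrane ring of the vacuolar proton pump (chr17:24163866-24169702, minus strand). It had 48.5, 46.7 and 49.1 FPKM in the B6 mice and 4.51 to 5.76 FPKM in the other 6, a log2 difference of 3.17. Its pseudogene Atp6v0c-ps2, which differs from it at 1 of 387 aligned bases, had 5.52, 7.56 and 4.94 FPKM in B6 and 339 to 441 in the others. The sum of Atp6v0c and its 2 copies was 167, 162 and 169 FPKM × kb in B6 and 176 to 225 in the other 6 mice. The sum was thus slightly lower in B6 (difference -0.20), although Atp6v0c as counted was higher. The level of the gene alone cannot be told from this sum.

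Tdg had 7.31, 7.30 and 7.53 FPKM in B6 and 1.70 to 1.83 in the others. Gm9855 had 0.0393 to 0.0468 FPKM in B6 and 7.40 to 9.58 in the others. The sum of Tdg and its copies was higher in B6, at 39.3 to 40.5 against 18.4 to 21.4 FPKM × kb (difference 1.01). Hmgn2, a nucleosome-binding protein, had 23.7, 22.7 and 22.4 FPKM in B6 and 5.197 to 6.45 in the others, and its sum was 74.9 to 78.2 against 32.1 to 36.0 FPKM × kb (difference 1.18). Rpl29, a protein of the large ribosomal subunit, had 189, 220 and 203 FPKM in B6 and 35.5 to 60.5 in the others. It matched 33 other genes, the most of any gene named here, and the sum over all of them differed by 1.66, less than the 2.13 of Rpl29 alone. Tdg, Hmgn2 and Ahcy were picked for description after their values were seen.

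**Figure D2:**
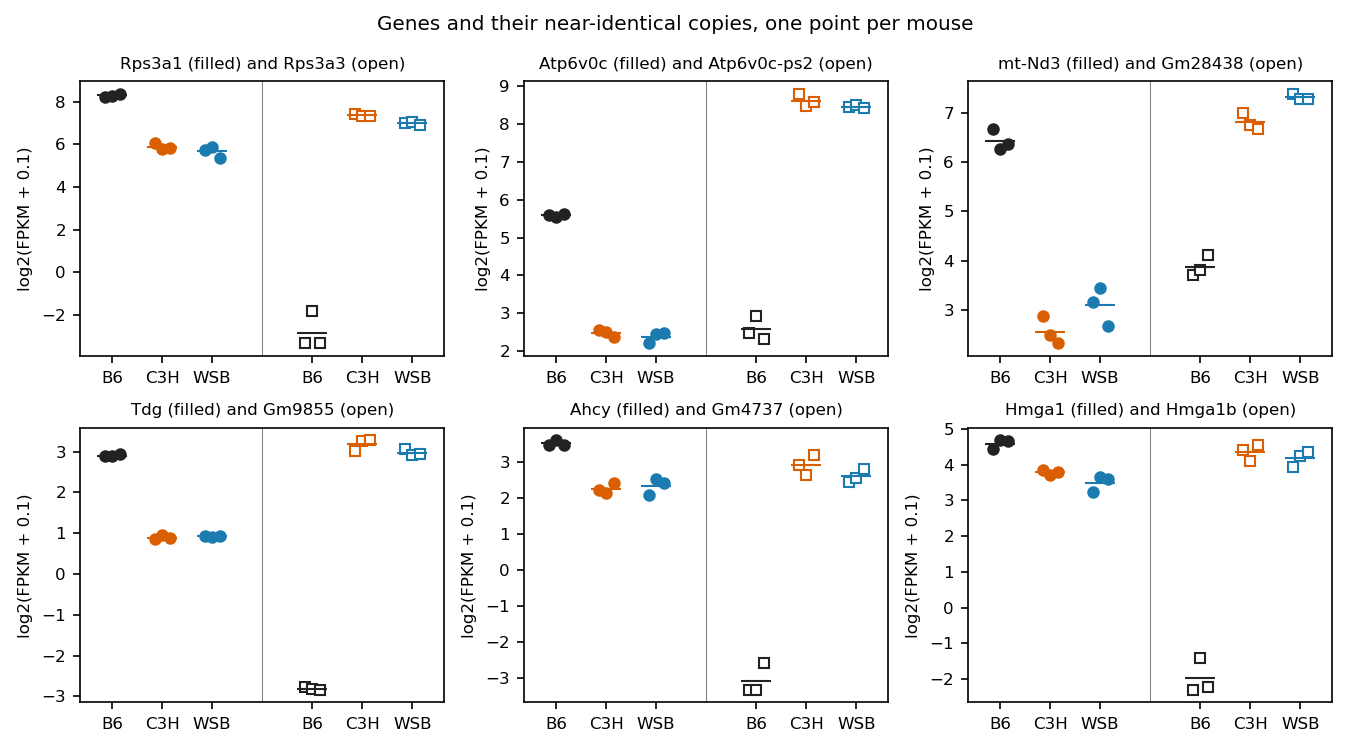
Log2(FPKM + 0.1) is plotted for 6 genes (filled circles, left of the grey line) and a near-identical copy of each (open squares, right of it), with 1 point for each mouse and a bar at the strain mean. In every panel the copy is lowest in the 3 B6 mice, and Rps3a1, Atp6v0c, mt-Nd3, Tdg, Ahcy and Hmga1 are each highest in the 3 B6 mice.

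The genes lowest in B6 against the other strains were largely the copies themselves. Eno1b, an enolase gene on Chr 18 (chr18:48045335-48048378, plus strand), had 0.191, 0.169 and 0.588 FPKM in B6. It had 74.7 to 96.6 FPKM in the C3H mice and 62.9 to 81.3 in the WSB mice, the largest difference of all (-7.70). Its parent Eno1, the glycolytic enzyme enolase, had 176, 192 and 196 FPKM in B6 and 102 to 139 in the others, and its other copy, the pseudogene Gm4735, had 0.386 to 0.532 in B6 and 77.6 to 115 in the others. The sum of the whole family in FPKM × kb ran from 949 to 1057 in B6 and from 780 to 1059 in the others. The groups thus overlapped once Eno1b, Eno1 and their copies were added.

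Hmga1b (chr11:120762794-120764419, plus strand), a copy of the chromatin protein gene Hmga1, had 0.103, 0.274 and 0.115 FPKM in B6 and 15.1 to 23.3 in the others, while Hmga1 had 21.4 to 25.4 in B6 and 9.23 to 14.4 in the others. Their sum differed by -0.17 and its groups overlapped. Gm4737 had no read in B6 replicates 1 and 2, 3 reads in B6 replicate 3 and 187 to 373 reads in the other mice, against 11.1 to 12.1 FPKM in B6 and 4.16 to 5.68 in the others for its parent Ahcy. The same arrangement held for Gm20075, a copy of the transcription factor gene Btf3l4, with 1 to 5 reads in B6 and 237 to 377 in the others. Btf3l4 had 10.3 to 11.4 FPKM in B6 and 5.72 to 7.63 in the others. The sums differed by 0.21 for Gm4737 and by 0.062 for Gm20075, and both overlapped between the groups.

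Eif3j2, a copy of the translation initiation factor gene Eif3j1, had 0.250 to 0.352 FPKM in B6 and 5.10 to 8.09 in the others, and Eif3j1 had 6.95 to 7.81 in B6 and 3.05 to 3.78 in the others. Gm11361, a copy of the ribosomal protein gene Rps18, had 0.460, 1.39 and 0.850 FPKM in B6, 8.91 to 9.82 in the C3H mice and 38.2 to 48.1 in the WSB mice, and Rps18 ran the other way, at 65.8 to 76.0, 51.8 to 58.0 and 25.5 to 27.0. Both sums were higher in B6, by 0.23 and 0.65, so the direction turned. Amd2 (adenosylmethionine decarboxylase) had 0.123 to 0.226 FPKM in B6, 2.89 to 3.70 in the C3H mice and 7.39 to 10.4 in the WSB mice, but its more abundant relative Amd1 had 34.1 to 38.5 in B6 and 28.3 to 39.1 in the others, and their sum overlapped between the groups.

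Tuba1c, an alpha tubulin gene with 10 near-identical relatives, had 0.708 to 1.04 FPKM in B6, 9.61 to 21.9 in the C3H mice and 1.81 to 2.25 in the WSB mice. Tagap, a GTPase-activating protein gene of lymphocytes, had 0.145 to 0.183 FPKM in B6, 0.942 to 1.22 in the C3H mice and 2.15 to 2.38 in the WSB mice, while its copy Tagap1 had 11.0 to 11.7 in B6, 10.6 to 12.4 in the C3H mice and 3.12 to 4.12 in the WSB mice. Gm7879 had at most 1 read in any B6 mouse, 36 to 73 reads in C3H and 1 to 4 in WSB. Gm7879 met the rule, but B6 and WSB were both close to 0. AC154187.2 (chr17:70974119-71002208, minus strand), which shares its place on Chr 17 with the myosin light chain gene Myl12b, had 2 or 3 reads in B6, 4 to 6 in the C3H mice and 153 to 188 in the WSB mice. AC154187.2 and Myl12b lie on the same strand, so counting by strand could not separate their reads where they overlap. With their copies added, the differences were -0.07 for Tuba1c and 0.33 for Tagap, whose groups overlapped, and -0.46 for Gm7879 and -3.17 for AC154187.2, whose groups did not.

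Over the 33 genes with a copy and a difference of at least 1, adding the copies kept the sum outside the range of the other mice in the same direction for 13 of 17 higher and 4 of 16 lower genes. The median size of the difference went from 1.28 to 0.73 in the higher genes and from 2.98 to 0.30 in the lower genes. Of the 15 higher genes with a copy that reached 1 FPKM in any mouse, 12 had such a copy on the opposite side of the range. The same held for 7 of 16 lower genes. With every gene summed with its copies, 1460 genes met the rule, and 1445 of them were among the 1469. Most members had no copy, so their sum was the gene itself and could not change. Of the 139 higher or lower members that had a copy, 112 stayed on the same side and 4 moved to the opposite side. The sum with copies was chosen after the data were seen.

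**Figure D3:**
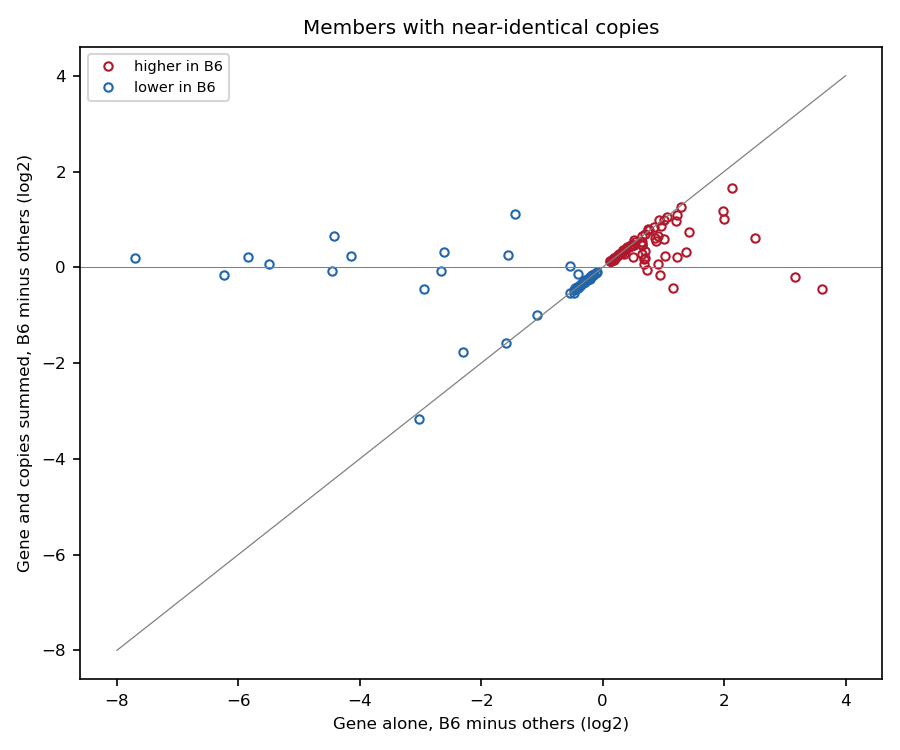
The log2 difference between B6 and the 6 other mice is plotted for each B6-private gene that has a near-identical copy, for the gene alone (horizontal axis) and for the sum of the gene and its copies (vertical axis); red genes were higher and blue genes lower in B6. Points on the diagonal line did not move, while Eno1b, at the far left, moved from -7.70 to 0.20.

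Genes without such a copy carried the remaining large differences. Pttg1 encodes securin, which holds back the separation of sister chromatids (chr11:43420250-43426251, minus strand). It had 11.4, 11.6 and 11.0 FPKM in the B6 mice, 0.242, 0.232 and 0.258 in the C3H mice and 0.150, 0.116 and 0.109 in the WSB mice. All 3 B6 mice were far above the other 6, with 408 to 470 reads against 4 to 10, a mean ratio of 61.4 and a log2 difference of 5.36.

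Myoc encodes myocilin, a secreted glycoprotein of the eye and of other tissues (chr1:162639155-162649693, plus strand). It had 13.1, 19.98 and 18.5 FPKM in B6, 1.35, 2.14 and 2.41 in C3H and 0.116, 0.0278 and 0.0528 in WSB. The C3H mice lay between the B6 and WSB mice, with 52 to 97 reads, and the WSB mice had 1 to 4. Fcrls, a scavenger receptor found on microglia (chr3:87250758-87263738, minus strand), followed the same order of strains. It had 14.3, 14.5 and 15.9 FPKM in B6, 5.55, 4.82 and 4.99 in C3H and 1.29, 1.04 and 0.891 in WSB.

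Several genes of antigen presentation were higher in B6. The class I molecules of the major histocompatibility complex (MHC) present peptides at the cell surface and pair a heavy chain with beta-2 microglobulin. They are among the most variable genes between inbred strains. For these genes too, a difference in RNA and a difference in read placement on the B6 reference cannot be told apart. A list of 15 class I and peptide-loading genes held 9 measured genes. Of these 9, 5 were B6-private and all 5 were higher in B6, against 12.5% and 5.29% of all measured genes. The values of the list are those that the rule used, so they are a description. The list had a median difference of 0.60 over the 9 against -0.0015 over all measured genes. The summed level of the list was 124 to 136 FPKM in B6 and 75.1 to 85.3 in the others.

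H2-D1, a classical heavy chain (chr17:35262730-35267499, plus strand), had 14.5, 12.3 and 14.6 FPKM in B6, 1.15, 0.740 and 1.08 in C3H and 1.19, 0.963 and 0.679 in WSB. H2-K1, the other classical heavy chain (chr17:33996017-34000333, minus strand), had 11.1, 11.1 and 9.95 FPKM in B6, 2.49, 1.80 and 2.31 in C3H and 3.55, 4.58 and 4.05 in WSB. The log2 differences were 3.73 and 1.82, and the absence of overlap between B6 and the others follows from the rule. H2-D1 had a mean of 0.966 FPKM over the 6 other mice, so it reached the minimum of 1 FPKM through its B6 values. The non-classical heavy chains H2-T22 (5.12 to 5.57 FPKM in B6, 2.48 to 3.54 in the others) and H2-T23 (5.11 to 5.97 against 2.75 to 3.90) differed by 0.74 and 0.76. B2m, the shared light chain, had 85.9, 77.6 and 88.0 FPKM in B6 and 48.2 to 60.7 in the others, a difference of 0.60. H2-Eb1, a class II beta chain (chr17:34305877-34316199, plus strand), had 2.69, 3.01 and 2.77 FPKM in B6, 1.41, 1.22 and 1.04 in C3H and 0.457, 0 and 0.509 in WSB. Among 11 measured interferon-stimulated genes, 27.3% were B6-private, against 12.5% of all measured genes. Igtp and Irf9 were higher and Stat2 was lower in B6, and the median difference of the list was 0.017.

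Other genes higher in B6 had modest levels. Muc3a, a mucin gene (chr5:137208813-137212389, minus strand), had 3.82, 3.46 and 2.46 FPKM in B6, 0.164 to 0.484 in the C3H mice and 0.459 to 0.812 in the WSB mice. Etnppl, an enzyme of phosphoethanolamine breakdown found in astrocytes (chr3:130617448-130637521, plus strand), had 2.35, 1.84 and 1.88 FPKM in B6 and 0.130 to 1.05 in the others. Tmem267, a gene for a membrane protein (chr13:119488039-119611059, plus strand), had 1.97, 2.05 and 2.86 FPKM in B6, 0.133 to 0.181 in the C3H mice and 1.14 to 1.22 in the WSB mice. Spp1, which encodes osteopontin, had 7.56, 8.65 and 7.09 FPKM in B6 and 1.02 to 3.42 in the others. Spp1 was named after its values were seen, as the next largest of these genes without a copy.

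Fewer genes without a copy were strongly lower in B6. Gm4353 (chr7:116082863-116084635, minus strand) had 0.107, 0.0953 and 0.181 FPKM in B6, 0.930 to 1.36 in the C3H mice and 1.79 to 2.93 in the WSB mice, with 3 to 6 reads in the B6 mice. Below it came 4 genes that were named after their values were seen. Pla2g4e, a cytosolic phospholipase (chr2:120166412-120245335), had 1.39, 1.52 and 1.33 FPKM in B6, 6.40, 6.15 and 6.43 in C3H and 9.26, 9.75 and 8.81 in WSB. Sytl1, a synaptotagmin-like protein, had 0.421, 0.393 and 0.820 FPKM in B6 and 1.61 to 4.11 in the others. Hddc3, a phosphohydrolase, had 1.33, 1.26 and 1.11 FPKM in B6 and 4.06 to 6.51 in the others. Prkcd, a protein kinase C, had 1.91 to 2.32 FPKM in B6, 3.46, 11.0 and 19.98 in C3H and 2.61, 8.59 and 5.89 in WSB. The mice of C3H and of WSB thus differed widely within their strain, and the lowest of them was close to B6. Whether the tissue taken differed between mice was not tested.

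**Figure D4:**
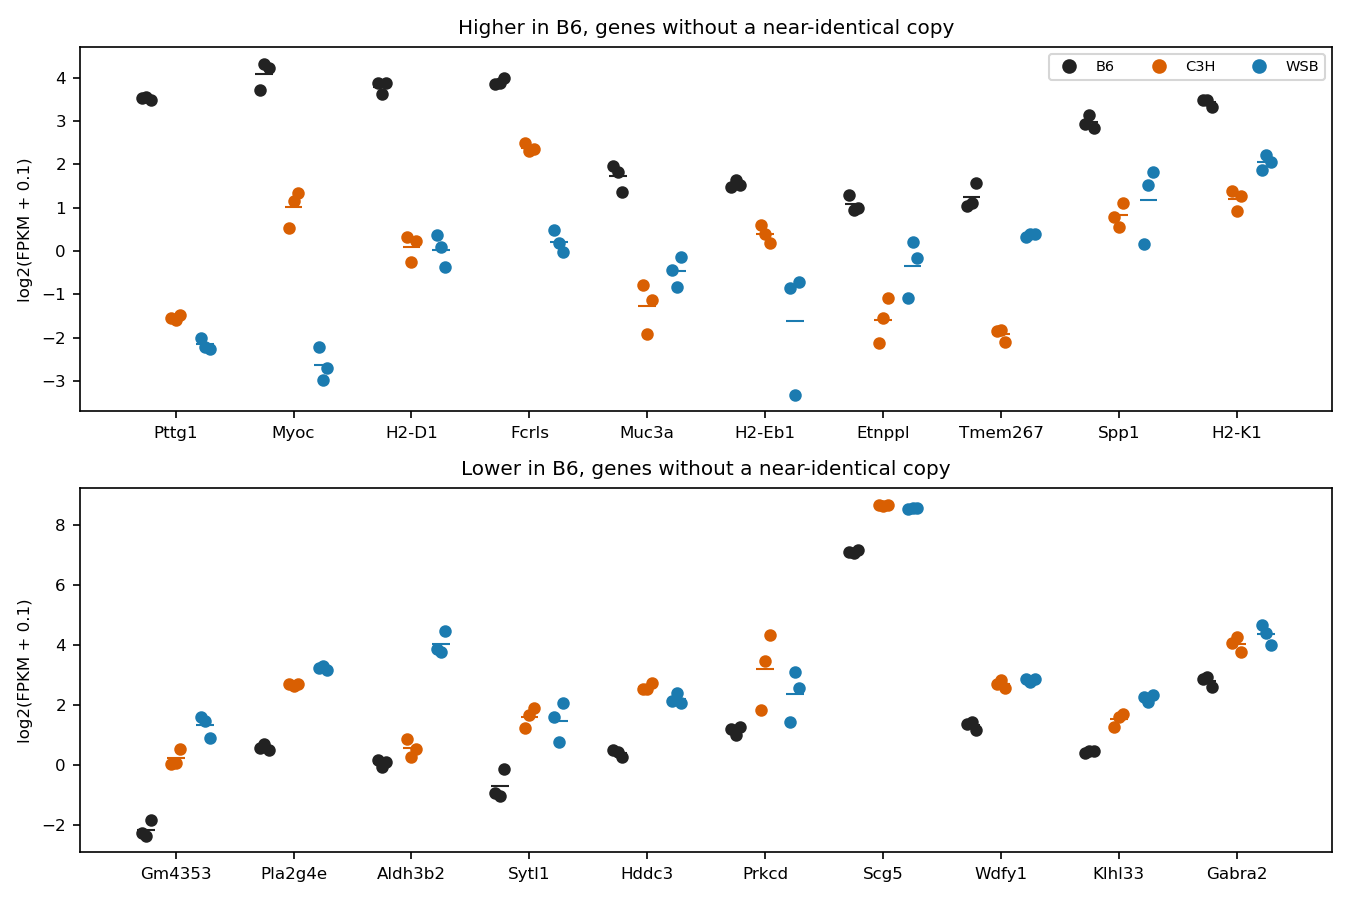
Log2(FPKM + 0.1) is plotted for the 10 genes with the largest difference in each direction among those without a near-identical copy, with 1 point for each mouse and a bar at each strain mean (B6 black, C3H orange, WSB blue). Pttg1 and Myoc stand furthest from the other strains in the upper panel, and Aldh3b2, in the lower panel, is low in C3H as well as in B6.

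A list of 11 genes with variants reported in B6 held 9 measured genes, of which 5 were B6-private, against 12.5% of all measured genes. Scg5 encodes a chaperone of a prohormone convertase in secretory granules (chr2:113776362-113829121, minus strand). It had 138, 134 and 145 FPKM in B6, 404, 401 and 411 in C3H and 371, 378 and 376 in WSB, a ratio of 2.81 of the others to B6 with little spread in any strain. Wdfy1, a protein of endosomes (chr1:79702262-79776143, minus strand), had 2.51, 2.62 and 2.17 FPKM in B6, 5.87 to 6.98 in the C3H mice and 6.74 to 7.16 in the WSB mice. Gabra2, an alpha subunit of the GABA-A receptor (chr5:70957597-71095849, minus strand), had 7.15, 7.58 and 5.95 FPKM in B6, 13.6 to 19.1 in the C3H mice and 16.1 to 25.1 in the WSB mice. Ide, the insulin-degrading enzyme, was higher in B6, at 12.2, 11.3 and 12.2 FPKM against 6.72 to 8.40, and the fifth gene was Pttg1. The list was drawn up from reports on this strain and was not independent of the pattern.

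Among 15 glutamate receptor subunits, Grin2b, an NMDA receptor subunit, alone met the rule, with 9.99, 9.91 and 10.3 FPKM in B6 and 5.17 to 8.14 in the others. The share of these subunits that met the rule was 6.67%, against 12.5% of all measured genes, and their median difference was -0.065.

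Among enzyme and stress gene lists the shares were near or below the 12.5% of all measured genes in most cases. Cholesterol synthesis had 4 of 18: Sc5d (13.8 to 15.7 FPKM in B6, 8.00 to 10.2 in the others), Cyp51 (17.9 to 20.1 against 12.1 to 17.1) and Hsd17b7 were higher and Pmvk was lower in B6. The lysosomal list had 4 of 23, with Ctss and Man2b1 higher and Ctsf and Ctsl lower, and the antioxidant list had 3 of 25, with Gpx4, Gsr and Prdx2 all lower by 0.22 to 0.32. The heat shock gene Hspa8 was the only member of 18 chaperone genes, at 429, 449 and 477 FPKM in B6 and 283 to 364 in the others. Bhlhe40 was the only one of 15 clock genes and Egln1 the only one of 14 hypoxia-sensing genes. None of 12 measured apoptosis regulators of the Bcl2 family met the rule. Of the 16 immediate early genes, Egr2 was higher in B6, and Nr4a2 had B6 values on both sides of the range.

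Markers of the cell types in cortex were B6-private in 1 of 9 genes for excitatory neurons, 1 of 11 for inhibitory neurons, 2 of 9 for astrocytes, 1 of 15 for oligodendrocytes and 3 of 11 for microglia, against 12.5% of all measured genes. All 9 excitatory neuron markers and all 11 inhibitory neuron markers were measured. All 9 striatal markers were measured too, so reaching the minimum does not tell cortex from other brain tissue. The excitatory marker Fezf2, a transcription factor of deep layers, had B6 values on both sides of the range, at 9.04, 9.73 and 12.7 FPKM against 9.99 to 12.5. Among the inhibitory markers Pvalb was lower in B6 (52.4 to 64.9 FPKM against 69.2 to 93.6). Of the 9 astrocyte markers, the glutamate transporter Slc1a2 was higher and S100b was lower, by 0.29 and 0.20. Of the 15 oligodendrocyte and myelin genes, Mal was higher, at 97.0, 70.9 and 74.0 FPKM in B6 and 31.7 to 62.6 in the others. The summed level of the list was 1035 to 1287 FPKM in B6, 959 to 1270 in the C3H mice and 574 to 802 in the WSB mice. B6 and C3H thus overlapped, while every WSB mouse was below every B6 mouse. The median difference of the list was 0.40. No endothelial or mural marker met the rule. None of 9 striatal markers did either, but their median difference was 0.56, and their summed level was 195 to 798 FPKM in the B6 mice and 142 to 473 FPKM in the others. The part of striatal tissue in the values of other genes was not tested.

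The microglial list was mixed. C1qc, a chain of complement C1q, had 25.4, 24.9 and 26.9 FPKM in B6, 16.5 to 18.4 in the C3H mice and 7.26 to 8.04 in the WSB mice. C1qb, another chain, had 53.3, 56.3 and 57.5 FPKM in B6 and 34.0 to 45.4 in the others. Aif1, which encodes a calcium-binding protein of microglia, was lower, at 4.56, 5.30 and 4.53 FPKM in B6 and 5.43 to 8.91 in the others. The summed level of the 11 microglial markers was 242 to 256 FPKM in B6, 223 to 256 in the C3H mice and 185 to 199 in the WSB mice, so B6 and C3H overlapped. In bulk tissue, fewer cells of a type and less RNA per cell cannot be told apart.

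The hemoglobin gene Hba-a1 was lower in B6, with 58.5, 55.2 and 68.5 FPKM against 245 to 339 in the C3H mice and 99.5 to 127 in the WSB mice. Its copy Hba-a2, which differs at 1 of 538 aligned bases, had 9.96 to 15.3 FPKM in B6 and 0.246 to 82.2 in the others, and the sum of both was still lower in B6 (difference -1.57, against -1.60 for Hba-a1 alone). Hba-a1 is 1 of 5 measured blood cell markers, whose summed level was 217 to 254 FPKM in B6, 632 to 1010 in the C3H mice and 249 to 329 in the WSB mice. The part of residual blood in the value of Hba-a1 was not tested. Of 7 measured hippocampal markers, 42.9% were B6-private, against 12.5% of all measured genes. Wfs1 was lower in B6 (28.9 to 33.0 FPKM, against 34.8 to 38.1 in the C3H mice and 53.5 to 58.1 in the WSB mice). Prox1 and C1ql2 had B6 values on both sides of the range. Genes with B6 values on both sides of the range included Ttr, the transthyretin of the choroid plexus, at 62.5, 749 and 61.7 FPKM in the B6 mice and 88.6 to 644 in the others. C1ql2, a hippocampal marker, behaved alike, with 1.01, 10.9 and 18.4 FPKM in B6 and 5.34 to 10.8 in the others. In both genes the B6 mice differed among themselves by more than the other 6 mice did.

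The B6-private genes with the highest levels differed by 0.20 to 1.15 among the higher and by -0.21 to -1.49 among the lower genes, with Rps2 and Scg5 at the far ends. Calm2, which encodes calmodulin, had 1447, 1353 and 1415 FPKM in B6 and 1115 to 1317 in the others (difference 0.20). Rps2, a ribosomal protein with 30 near-identical copies, had 217, 260 and 265 FPKM in B6, 139 to 180 in the C3H mice and 65.2 to 88.7 in the WSB mice, and its sum with the copies differed by -0.44 and overlapped between the groups. Among the lower genes, Rplp1 (743 to 842 FPKM in B6, 899 to 1281 in the others) differed by -0.38. The lactate dehydrogenase subunit Ldhb, the prion protein gene Prnp and the complexin gene Cplx1, a regulator of synaptic vesicle fusion, differed by -0.21, -0.29 and -0.30.

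At the edge of the rule, membership turned on very small gaps. Just inside were Arsb (lowest B6 value 6.357 FPKM, highest other value 6.356), Hist1h1c and Asb3 among the higher genes, and Rhbdd3, Ppt2 and Med24 among the lower genes. Just outside were Agfg1, Fnip2 and Synrg on the higher side and Dnajc8, BC005624 and Klk1b22 on the lower side. Klk1b22 was at 0 in all B6 and WSB mice and at 4.82 to 5.31 FPKM in C3H. A gap of at least 0.1 on the log2 scale was met by 573 of the 1469 genes, 277 higher and 296 lower.

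The genes higher and the genes lower in B6 also differed from each other in base composition, which the rule had not used. Over all members together the median GC content was 50.8%, close to the 50.1% of genes outside the rule. The median GC content of the transcript was 47.7% in the genes higher in B6, 53.6% in those lower in B6 and 50.2% in all measured genes, and the median length was 5464.5, 3475 and 4434 bases. Across 11738 measured genes with a transcript sequence, the difference of B6 from the others fell as GC content rose (Spearman's rank correlation = -0.41). The value was -0.53 for B6 minus C3H and -0.13 for B6 minus WSB. Genes within a library are not independent, and these values are a description.

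With the trend of GC content taken out of every library, 1570 genes met the rule, and 1070 of them were among the 1469. The genes with differences of at least 1 were kept in 56 of 56 cases on the higher side and in 36 of 37 on the lower side, whereas those under 0.5 were kept in 66.4% and 68.8%. Named genes that no longer met the rule were Ctss, Abl2, Asb3, Arsb, mt-Co1 and Calm2 on the higher side, and Aldh3b2, Wfs1, Gpx4, Ldhb, Med24, Ppt2 and Rhbdd3 on the lower side. The part of base composition in the small differences was not tested further.

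B6-private genes were spread over the genome. On the autosomes and the X chromosome their share of measured genes ran from 7.81% on Chr X to 16.3% on Chr 8 (105 of 643). Chr 16 (8.38%) was also low, and Chr 4 (15.7%) and Chr 19 (14.96%) were also high. The directions were unequal on several chromosomes: Chr 1 had 56 higher and 24 lower genes and Chr 18 had 26 and 8, while Chr 15 had 17 and 47.

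**Figure D5:**
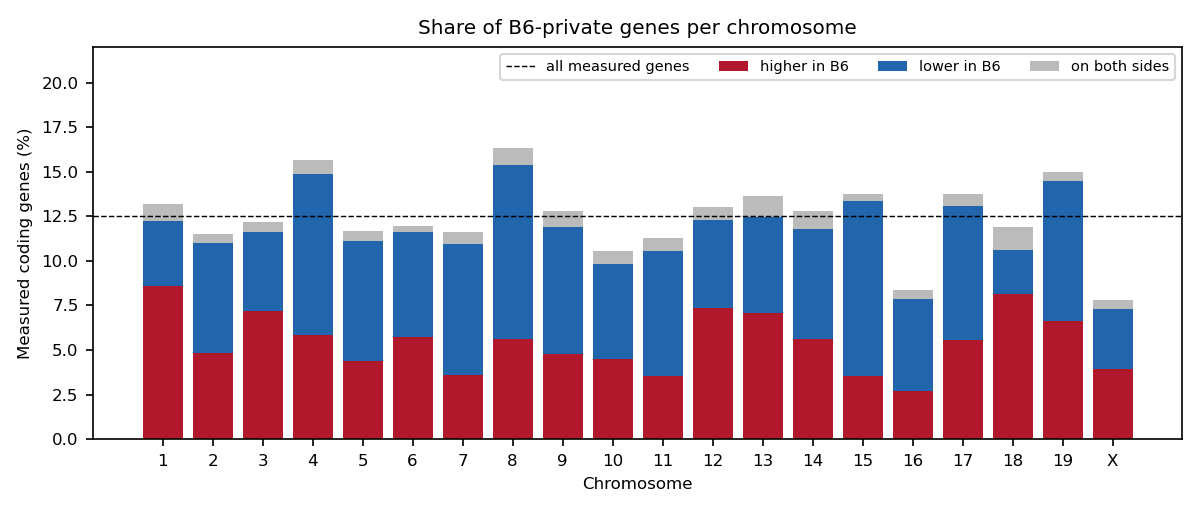
Bars give the share of measured coding genes on each chromosome that were B6-private, split into genes higher in B6 (red), lower in B6 (blue) and with values on both sides (grey); the dashed line is the share over all measured genes (12.5%). Chr 8 is the tallest bar (16.3%) and Chr X the shortest (7.81%).

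The interval on Chr 8 that the study mapped for infarct volume between B6 and WSB held 173 measured genes. Of these, 37 were B6-private (21.4%), against 12.5% of all measured genes. They were 14 higher, 21 lower and 2 on both sides, against 5.29%, 6.5% and 0.706% of all measured genes. The share in the interval was not tested. Slc5a5, the sodium iodide symporter (chr8:70882889-70892757, minus strand), had 5.28, 7.17 and 8.09 FPKM in B6, 2.39, 2.49 and 2.53 in C3H and 3.14, 2.70 and 2.49 in WSB. Hpgd, which inactivates prostaglandins (chr8:56294585-56321043, plus strand), had 4.25, 3.44 and 3.68 FPKM in B6, 1.01 to 1.72 in the C3H mice and 1.17 to 2.43 in the WSB mice. In both genes C3H and WSB lay together and below B6. Gm10282, a copy of Hmgn2, had 4.73 to 5.54 FPKM in B6 and 12.1 to 14.5 in the others, opposite to Hmgn2. With its 10 copies added, its difference turned from -1.44 to 1.11.

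The position of the members along the chromosomes is given as a description. The next measured gene along the chromosome was higher or lower in B6 after 14.99% of the higher or lower genes and after 11.4% of the rest, and 136 of 207 neighbouring pairs (65.7%) had the same direction. The longest run was of 4 genes on Chr 4 (chr4:144892827-147868816), with Dhrs3 lower and Vps13d, Zfp933 and Miip higher in B6. Zfp933, a zinc finger gene, had the largest difference in it, at 5.10, 3.91 and 3.34 FPKM in B6 and 0.809 to 1.90 in the others. There were 29 runs of 3, such as Soat1, Abl2 and Tor3a on Chr 1 (the last lower, the others higher), Uhmk1, Gm7694 and Nos1ap on Chr 1, Ackr1, Cadm3 and Fmn2 on Chr 1 (both sets all higher), and Pa2g4 (lower), Erbb3 and Rps26 (higher) on Chr 10.

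The contrast of WSB with C3H was the only difference between strains that the direction of the rule had not used. It was tested with limma on log2(FPKM + 0.1) over 20768 genes with Benjamini-Hochberg adjustment, and 1657 of them (7.98%) differed at an adjusted p under 0.05. Of the measured coding genes 8.43% differed, and of those outside the rule 8.78%. Among the 1469 B6-private genes, 88 differed (5.99%), 48 higher and 40 lower in WSB, and 238 had an unadjusted p under 0.05. A gene meets the rule more readily when the 6 other mice lie close together, so nothing is read from the lower share.

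The count of 88 depended on single mice. It was 51 without C3H replicate 1, 52 without C3H replicate 3, 53 without WSB replicate 1 and 54 without WSB replicate 2, and it was 132 without C3H replicate 2. The number of members rose to 1829 without B6 replicate 1, to 2242 without B6 replicate 2 and to 2421 without B6 replicate 3. A rule over fewer mice is easier to meet, and why the rises were unequal was not tested.

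Higher in WSB than in C3H were AC154187.2 (log2 difference 4.68 ± 0.19 SE, limma adjusted p = 8.67e-07), Aldh3b2 (3.48 ± 0.21, adjusted p = 1.57e-05), Tmem267 (2.29 ± 0.19, adjusted p = 0.000111), Gm11361 (2.13 ± 0.28, adjusted p = 0.00195) and Copz2 (1.93 ± 0.18, adjusted p = 0.000196). Aldh3b2, an aldehyde dehydrogenase, had 1.02, 0.856 and 0.964 FPKM in B6, 1.73, 1.11 and 1.35 in C3H and 14.6, 13.5 and 22.1 in WSB, so that B6 and C3H were far closer to each other than to WSB. Copz2, a subunit of the coatomer of transport vesicles, had 2.18, 2.80 and 2.83 FPKM in B6, 0.341 to 0.467 in the C3H mice and 1.61 to 1.98 in the WSB mice, and here B6 and WSB were the closer strains. Every WSB mouse was above every C3H mouse in these 5 genes.

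Lower in WSB than in C3H were Gm7879 (-3.97 ± 0.40 SE, limma adjusted p = 0.000338), Myoc (-3.64 ± 0.27, adjusted p = 5.05e-05), Tuba1c (-2.97 ± 0.29, adjusted p = 0.000286), Fcrls (-2.17 ± 0.13, adjusted p = 1.57e-05) and Arhgef10 (-1.62 ± 0.17, adjusted p = 0.000486). Arhgef10, a guanine nucleotide exchange factor, had 4.797, 3.71 and 3.50 FPKM in B6, 2.81 to 3.17 in the C3H mice and 0.699 to 1.04 in the WSB mice. For Myoc, Fcrls and Arhgef10 the strains were thus ordered B6, C3H, WSB, with no overlap between neighbours.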

How the data were processed

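RNA of brain cortex was sequenced as paired-end libraries for 9 male mice (3 B6, 3 C3H, 3 WSB). The authors trimmed the reads with Cutadapt and counted them on genes with HTSeq; the submitters' processing notes also name STAR and DESeq2, and versions, build, strand setting and the treatment of reads with several matches are not given in the sources used here. The deposited values are FPKM per gene and mouse. All FPKM values times gene length were whole multiples of a step per library (tolerance 0.01 read), which gave the reads used for depth (16317439 to 21562429 per library). Counting error limits genes with few reads.

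Strains were taken from the labels. The rule was applied to protein-coding genes whose mean reached 1 FPKM; differences are on the log2(FPKM + 0.1) scale, which understates those of low genes. The contrast of WSB and C3H was fitted with limma 3.58.1 (R 4.3.3) over all genes whose mean reached 0.1 FPKM, with 3 strains in the fit, and checked on simulated data. Copies were found with blastn 2.17.0 on transcripts of GENCODE M21 (GRCm38), whose coordinates equal those deposited for 53585 of 54495 shared identifiers. Sums with copies are of FPKM times gene length in kilobases. As an alternative, the trend of log2 values with GC content was taken out of each library.

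Named were the 12 genes with the largest difference in each direction, the 3 nearest to the edge of the rule on each side, members of fixed lists or of the Chr 8 interval (up to 4 each), the 5 longest runs, the 5 largest differences between WSB and C3H each way, and the 5 highest levels each way; some of these are not reported here. The members and lists were chosen with earlier results of these data known. Replicate numbers did not pair the mice (correlations of deviations between -0.28 and 0.17). Alternatives were other minimums, scalings, pseudocounts, weights, libraries left out and a replicate block.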

Additional observations from a re-analysis of the deposited data

Results flagged for a closer look

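Of 95 named B6-private genes tested, 23 differed between WSB and C3H, against 5.99% of all B6-private and 8.43% of all measured coding genes, and 10 of the named genes had been named for the size of this very difference. In the 23 genes the difference of B6 was unequal against the 2 strains (limma over all 9 libraries, Benjamini-Hochberg adjusted p under 0.05; values are WSB minus C3H on the log2 scale). Among genes higher in B6, these were Pttg1 (-0.62), Myoc (-3.64), Fcrls (-2.17), Tmem267 (2.29), H2-K1 (0.86), Copz2 (1.93), Arhgef10 (-1.62), C1qc (-1.15), Rps2 (-1.01), Hist1h1c (-0.62) and Cyp51 (0.36). Among genes lower in B6 they were Wfs1 (0.63), Aif1 (-0.44), Tor3a (-0.74), Hba-a1 (-1.37), Aldh3b2 (3.48), Tagap (1.04), Tuba1c (-2.97), Gm4353 (1.11), Gm7879 (-3.97), AC154187.2 (4.68), Gm11361 (2.13) and Amd2 (1.36). The adjusted p was nearest to the threshold for Aif1 (0.0486) and Pttg1 (0.0445). In Hba-a1 the summed blood markers moved the same way, at 632 to 1010 FPKM in C3H and 249 to 329 in WSB, and their part in the difference was not tested. In Hba-a1, Rps2, Tagap, Tuba1c, Gm7879, AC154187.2, Gm11361 and Amd2 the values also rest on how reads were divided among near-identical copies, and the difference of the sums between WSB and C3H was not tested.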

How the results depend on the processing

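The number of B6-private genes stayed within 1.5 times of 1469 under other minimums of FPKM, other scalings, removal of the trend with GC content and the sum with copies; with a gap of at least 0.1 on the log2 scale it was 573 (277 higher and 296 lower). Leaving out each mouse in turn gave 1656 to 2421 genes, 703 to 998 higher and 808 to 1345 lower, a rise that fewer mice in the rule bring about by construction. For WSB against C3H among the members, the 88 genes (48 higher in WSB) became 58 (28 higher) in a fit of the C3H and WSB libraries only, and 28 were higher in WSB without a trend in the variance. Leaving out each mouse gave 51 to 132 genes, 23 to 74 higher and 26 to 58 lower in WSB. The cause of these changes was not tested. With the replicate number as a block, 58 differed, 29 of them higher in WSB; the numbers do not pair the mice. The other settings turned no named difference of B6 and no called difference between WSB and C3H. The sum of a gene with its near-identical copies, a setting chosen after seeing the data, turned the B6 difference of mt-Nd3 to -0.46, Atp6v0c to -0.20, Rps2 to -0.44, Gm10282 to 1.11, Tagap to 0.33, Eif3j2 to 0.23, Gm11361 to 0.65, Gm20075 to 0.062, Gm4737 to 0.21 and Eno1b to 0.20. The values carry no spread beyond 3 mice a strain, and genes with a handful of reads in B6 have differences that depend on the added 0.1 FPKM.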
